A study of Mus musculus with 104 samples.

Results

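The siRNAs D5 and D6 share a guide strand against the mRNA of Ttr, which encodes transthyretin, the thyroxine and retinol carrier made by the liver, and differ in the nucleobase of a single building block at guide position 6, which is GNA-G in D5 and GNA-isoG in D6. The 4 libraries labelled D6 at 10 nM were compared directly with the 4 labelled D5 at 10 nM, 8 of the 96 libraries treated with siRNA in the series, which also has 8 mock libraries, all chosen by their treatment label. In that series primary mouse hepatocytes (PMH, from a commercial supplier) were transfected with 1 of 6 GalNAc-siRNAs. RNA was taken after 24 h and made into sequencing libraries with a total RNA kit. The labels give no genotype, strain or age for any group, and all groups were reverse-transfected with Lipofectamine RNAiMax in a 384-well plate. The other groups used are D4, the parent siRNA without GNA, at 10 nM (4 libraries), D5 and D6 at 0.1, 1 and 50 nM (4 libraries each), and 8 libraries of mock-transfected cells. The labels do not say whether replicates came from separate animals, cell lots or only wells, so the p-values below measure the spread between these libraries, which may be technical.

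An siRNA guide strand is loaded into an Argonaute protein and cleaves a fully complementary mRNA. Its seed, counted here as guide positions 2 to 8, can also pair with sites in the 3′-UTR of other mRNAs and lower them in the way a microRNA does. GNA (glycol nucleic acid) has an acyclic glycol backbone in place of ribose, and GNA placed in the seed weakens seed pairing. In isoguanine the hydrogen bond donors and acceptors of guanine are transposed. Since D5 and D6 carry GNA at the same place, the comparison asks which transcripts differ when only that base is exchanged.

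Genes were searched for the letters that pair with the seed, read 5′ to 3′ on the sense strand of the longest annotated 3′-UTR. The 3 kinds of match were mer8 (CTCTATAA, complementary to guide positions 2 to 8 with an A after them), mer7m8 (CTCTATA) and mer7A1 (TCTATAA), and a gene was counted under the strongest of them, since a mer8 also holds both others. Of 20973 genes with an annotated 3′-UTR, 3.05% held a mer8, 9.15% a mer7m8 and 13.6% a mer7A1 sequence. The sites below belong to the 6 mer8 genes that were lower with D6 by the largest fold among those with a mean of at least 5 CPM and no overlap of libraries, and they are shown as examples of letters outside Ttr that are complementary to the seed of D5 and D6. Capitals mark the mer8 letters, and coordinates are those of GRCm39.
Ifi204, chr1:173574920-173574949, minus strand: tcatttgttgtCTCTATAActtctataact
Uhmk1, chr1:170026693-170026722, minus strand: gagctaacacaCTCTATAAccatttcttcc
Gbp7, chr3:142252421-142252450, plus strand: tataggtcactCTCTATAAattaatggcaa
Dmd, chrX:84247285-84247314, plus strand: catataaacatCTCTATAAttacaactaaa
C1galt1, chr6:7874060-7874089, plus strand: attctttacttCTCTATAAtggctattacc
Rora, chr9:69290036-69290065, plus strand: ttttttaaaccCTCTATAAatatttgatgg
All 6 lie in the 3′-UTR of an annotated transcript of the gene, between position 97 of 3575 bases in Gbp7 and position 3804 of 9285 bases in Rora. In guide numbering the base opposite the GNA at position 6 is the later C of the capitals. A match of letters describes these sequences and does not show that the guide was bound there.

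The D5 libraries held 4770308, 4866060, 4924567 and 5840357 counts on genes, and the D6 libraries 4997205, 4842853, 3826700 and 5247987. Levels are given as CPM (counts scaled to library size) on a TMM scale shared by 44 libraries. The first principal component of the 8 libraries took 37.2% of their variance, with the D6 libraries from 14.1 to 18.8 on it and the D5 libraries from −17.5 to −12.9. The mitochondrial share of counts also differed between the groups, at 3.12%, 2.96%, 2.92% and 2.80% with D5 and 3.53%, 3.41%, 3.55% and 3.6% with D6. Those values did not overlap, the 8 mock libraries lay between 2.98% and 3.34% and the D4 libraries between 2.69% and 3.81%, and the part of this share in the results below was not tested. Hepatocyte markers were present at high levels in all 8 libraries. Of 14 such markers, 13 matched a symbol, and together they took between 20223 and 23598 CPM with D5 and between 20490 and 22531 CPM with D6, most of it from Alb, the gene of serum albumin.

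Other liver cell types were at low levels. The 8 biliary or progenitor markers summed to 255.6 to 315 CPM with D5 and 262 to 281 CPM with D6, of which Krt19, a keratin of bile duct cells, was the most abundant. Of 10 macrophage markers, 7 or 8 were at 0 in each library, Clec4f, Marco, Vsig4, Cd5l, C1qa and C1qb among them, and nearly all of the sum of 17.3 to 39.4 CPM came from Cd68. Of 9 endothelial markers, 4 to 6 were at 0, with sums of 4.31 to 9.46 CPM, and of 7 lymphocyte markers 5 or 6 were at 0, with sums of 1.5 to 7.23 CPM carried by Cd3e. The 10 stellate cell and fibroblast markers summed to 14.8 to 18.9 CPM with D5 and 19.5 to 25.6 CPM with D6, almost entirely from Reln, and 5 to 8 of them were at 0. Of the macrophage, endothelial, lymphocyte, stellate cell and fibroblast markers, 4 were high enough to test, of which Reln was called higher with D6 (log2 fold change 0.47 ± 0.14, adjusted p = 0.0173), while Cd68 (log2 fold change −0.0028 ± 0.23, adjusted p = 0.997), Oit3 of endothelium (log2 fold change −0.35 ± 0.28, adjusted p = 0.45) and Cd3e (log2 fold change −0.88 ± 0.37, adjusted p = 0.0987) did not pass. Of 7 tested biliary or progenitor markers 1 was called higher (14.3%, where 6.94% of all genes tested were), Epcam, whose values follow below. The part of these cells in the results below was not tested. In bulk RNA of this kind, fewer cells of a type and less RNA per cell cannot be told apart.

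Ttr was almost gone in both groups. It was counted 8, 14, 11 and 22 times in the D5 libraries and 7, 5, 7 and 6 times in the D6 libraries, which is 1.70, 2.94, 2.26 and 3.83 CPM against 1.39, 1.03, 1.78 and 1.13 CPM. The mock libraries held 2421 to 3558 counts of Ttr, or 659 ± 57.1 CPM (SD, n = 8), so the mean with D5 was 0.407% and with D6 0.202% of the mock mean. In 3 of 4 D6 libraries Ttr was below every D5 library, and the groups overlapped in the remaining one. The difference of −0.80 ± 0.25 (SE) in log2 CPM did not pass an exact permutation test (two-sided p = 0.0571, adjusted over 4 doses 0.229, where 4 against 4 libraries cannot go below 0.0286). At 0.1, 1 and 50 nM the D6 minus D5 difference in log2 CPM of Ttr was −0.49 ± 1.25, −0.18 ± 0.39 and 0.21 ± 0.29 (SE), with exact permutation p of 0.943, 0.686 and 0.543. At 0.1 nM the value rested on D5 replicate 2, which held 335 counts of Ttr where the other D5 libraries held 6 to 17, and without it the difference was 0.72 (exact permutation p = 0.171). The counts are small, and summed over 4 libraries they were 55 with D5 and 25 with D6. By the exact permutation test over libraries the difference at 10 nM passed in sequencing run 1 alone (−0.91, p = 0.0286) and not in run 2 alone (−0.44, p = 0.257) or in both together. Rbp4, the plasma retinol-binding protein that travels bound to transthyretin, was lower with D6 than with D5. It stood at 455, 438, 435 and 435 CPM with D5 and 389, 403, 345 and 368 CPM with D6, with no overlap (log2 fold change −0.22 ± 0.06, adjusted p = 0.00671). The mock libraries held 377.5 to 442.8 CPM of Rbp4, with a mean of 412.7 CPM, and D4 had a mean of 427.3 CPM. The mock mean thus lay between D5 and D6, and D4, with Ttr also silenced, was above it. Gapdh, a glycolytic enzyme often used as a reference, stood at 709, 692, 688 and 736 CPM with D5 and 724, 700.3, 677 and 739 CPM with D6, with overlapping groups and a log2 fold change of 0.02 ± 0.05 (adjusted p = 0.895).

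Across the transcriptome, 1918 of 11095 genes tested, or 17.3%, differed between D6 and D5 by edgeR's quasi-likelihood test with Benjamini-Hochberg adjustment (threshold 0.05, as for every adjusted p given). Lower with D6 were 1148 genes (10.3%) and higher were 770 (6.94%), while the median log2 fold change of all genes tested was 0.0046. Most differences were small, and 103 genes fell and 37 rose by more than 2-fold. The 4 and 4 libraries did not overlap for 1523 of the 1918 genes called, where 18.6% of all genes tested (2069) did not overlap.

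The 10 protein-coding genes that fell by the largest fold were taken among the 900 with at least 5 CPM and no overlap of libraries. Lox, the lysyl oxidase that crosslinks collagen and elastin, stood at 17.4, 45, 46.6 and 67.9 CPM in the D5 libraries and 6.94, 7.43, 6.09 and 6.0 CPM in the D6 libraries (log2 fold change −2.74 ± 0.47, adjusted p = 0.00921). D5 replicate 1 was far below the other D5 libraries, yet above all of D6, and the mock libraries had a median of 29.5 CPM. Fbln2, which encodes the matrix protein fibulin 2, went from 85.7, 101, 76.8 and 106 CPM with D5 to 24.8, 32, 23.6 and 17.8 CPM with D6 (log2 fold change −1.91 ± 0.13, adjusted p = 2.56e-09). Timp2, an inhibitor of matrix metalloproteinases, went from 6.81, 6.94, 11.5 and 8.88 CPM to 1.98, 1.45, 3.55 and 2.63 CPM (log2 fold change −1.84 ± 0.28, adjusted p = 9.46e-06), and Igfbp7, a secreted protein that binds insulin-like growth factors, from 9.36, 10.3, 12.3 and 10.3 CPM to 4.16, 1.24, 1.52 and 3.19 CPM (log2 fold change −2.01 ± 0.27, adjusted p = 8.08e-07). That the libraries of the 10 genes do not overlap was a condition of their choice. F13b, the carrier subunit of coagulation factor XIII, fell from 13.2, 12.2, 13.6 and 15.3 CPM to 3.17, 3.92, 3.55 and 1.5 CPM (log2 fold change −2.17 ± 0.23, adjusted p = 8.75e-09), and Ccl20, a chemokine, from 9.14, 9.04, 11.9 and 10.1 CPM to 2.97, 3.1, 1.78 and 3.56 CPM (log2 fold change −1.77 ± 0.24, adjusted p = 1.24e-06). The mock medians of Timp2, Igfbp7 and Ccl20 were 4.51, 7.57 and 7.09 CPM, between the D5 and the D6 libraries. Part of the difference in these genes thus lay in D5 being above the mock median. For F13b and Fbln2 the mock medians were 11.9 and 89.4 CPM, just below D5 and among the D5 libraries. The remaining members of the 10 act inside the cell.

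Kpna6, an importin alpha that carries proteins into the nucleus, had the smallest adjusted p of the 10. It stood at 118, 117, 114 and 127 CPM in the D5 libraries and 32.1, 39.4, 31.5 and 37.1 CPM in the D6 libraries (log2 fold change −1.75 ± 0.08, adjusted p = 9.98e-18), with a mock median of 144 CPM. Nck1, an adaptor between receptor tyrosine kinases and the actin cytoskeleton, stood at 29.1, 34.1, 36 and 37.6 CPM in the D5 libraries and 8.72, 7.02, 8.88 and 14.4 CPM in the D6 libraries (log2 fold change −1.78 ± 0.16, adjusted p = 2.44e-10). Elmod1, a regulator of small Arf GTPases, stood at 7.87, 10.5, 10.1 and 12.2 CPM in the D5 libraries and 1.98, 3.1, 1.52 and 3.94 CPM in the D6 libraries (log2 fold change −1.90 ± 0.26, adjusted p = 1.15e-06). D6 replicate 4 was the highest D6 library for Nck1 and Elmod1. Ifi204, an interferon-inducible gene of a cluster of close paralogs, so that its counts are uncertain, stood at 6.17, 9.04, 15.2 and 13.2 CPM in the D5 libraries and 1.98, 3.1, 0.761 and 2.63 CPM in the D6 libraries (log2 fold change −2.31 ± 0.31, adjusted p = 1.53e-06). Of these 10 genes, 3 had a seed match in the 3′-UTR, which were Ifi204 (mer8), Nck1 (mer7m8) and Igfbp7 (mer7A1). Lox, F13b, Fbln2, Elmod1, Timp2, Ccl20 and Kpna6 had none in the 3′-UTR searched.

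The 10 genes with the largest increase were chosen in the same way. Itgb4, the integrin beta chain of hemidesmosomes, stood at 18.1, 12.8, 13.2 and 8.7 CPM in the D5 libraries and 51.9, 41.3, 41.9 and 41.8 CPM in the D6 libraries (log2 fold change 1.77 ± 0.15, adjusted p = 1.21e-10). Its mock median was 4.05 CPM, so that all D5 and D6 libraries were above it, and D4 was at 75.5 ± 8.13 CPM (SD, n = 4). Epcam, an adhesion molecule of biliary and progenitor cells, stood at 3.83, 4.62, 4.52 and 2.96 CPM in the D5 libraries and 11.7, 11.3, 7.11 and 14.6 CPM in the D6 libraries (log2 fold change 1.52 ± 0.23, adjusted p = 8.50e-06), above a mock median of 1.65 CPM. It was the 1 of 7 tested biliary or progenitor markers that passed, and Krt19, Krt7, Sox9, Spp1 and Prom1 had log2 fold changes between −0.25 and 0.15. St14, the membrane serine protease matriptase, rose from 10.6, 8.83, 9.04 and 8.88 CPM to 21.2, 21.7, 23.1 and 19.9 CPM (log2 fold change 1.2 ± 0.15, adjusted p = 2.02e-07). Marcks, an actin-binding substrate of protein kinase C, rose from 28.3, 34.3, 27.3 and 36.7 CPM to 73.7, 76.4, 57.4 and 64.3 CPM (log2 fold change 1.11 ± 0.10, adjusted p = 5.81e-10), and Ablim3, an actin-binding LIM protein, from 3.83, 4.84, 4.32 and 6.09 CPM to 13.1, 9.08, 9.9 and 9.38 CPM (log2 fold change 1.11 ± 0.22, adjusted p = 2.73e-04). Again the lack of overlap between D5 and D6 was a condition of the choice.

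The other 5 of the 10 largest increases were at low levels. Slc22a26, an organic anion transporter with close paralogs, so that its counts are uncertain, stood at 3.62, 3.36, 2.67 and 1.92 CPM in the D5 libraries and 8.52, 8.05, 8.63 and 13.1 CPM in the D6 libraries (log2 fold change 1.76 ± 0.26, adjusted p = 4.40e-06). Amt, of the glycine cleavage system of mitochondria, stood at 3.62, 4.0, 4.93 and 3.48 CPM in the D5 libraries and 11.9, 6.61, 10.7 and 6.19 CPM in the D6 libraries (log2 fold change 1.14 ± 0.25, adjusted p = 0.00124). Gfra1, a receptor for the growth factor GDNF, stood at 3.62, 3.57, 3.29 and 4.53 CPM in the D5 libraries and 9.12, 7.64, 8.63 and 7.88 CPM in the D6 libraries (log2 fold change 1.14 ± 0.23, adjusted p = 5.03e-04). D6 replicate 4 was the highest library for Slc22a26 and the lowest of its group for Amt. Sec31b, of the vesicle coat that leaves the endoplasmic reticulum, and the gene 4930503B20Rik had log2 fold changes of 1.18 ± 0.28 (adjusted p = 0.00223) and 1.12 ± 0.18 (adjusted p = 2.03e-05). Of the 10 largest increases, 2 had a seed match, Ablim3 (mer7m8) and Marcks (mer7A1).

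**Figure D1:**
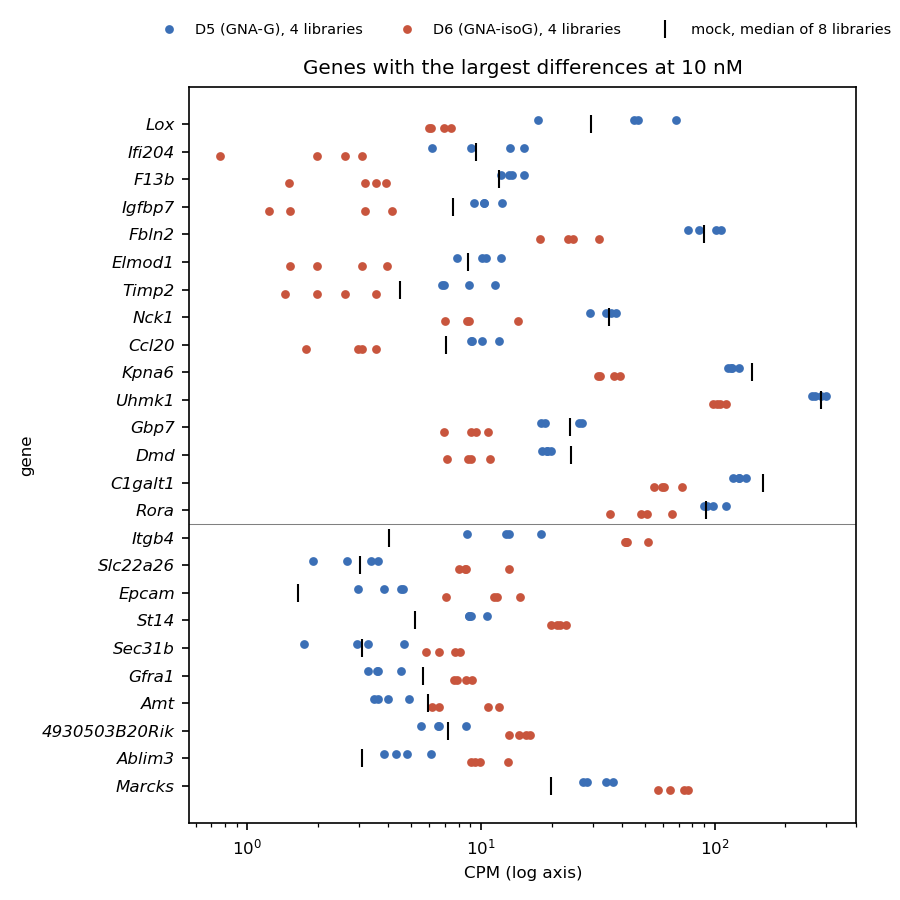
CPM on a log axis for the 10 genes with the largest decrease and the other 5 mer8 genes named (above the line) and the 10 with the largest increase (below it), with a point for each of the 4 D5 and 4 D6 libraries and a bar for the median of 8 mock libraries. The D5 and D6 points do not overlap, as the choice of genes required, and for Itgb4, Epcam, St14, Marcks and Ablim3 the mock bar lies to the left of both groups.

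Of the 900 genes called lower at 5 CPM or more without overlap, 61 had mer8 as their strongest match. Without the CPM and overlap conditions, these were 73 of 1129 genes called lower with an annotated 3′-UTR (6.47%). Among all 10558 such genes tested they were 326 (3.09%). Uhmk1, a serine/threonine kinase that binds RNA, stood at 285, 268, 259.9 and 298 CPM in the D5 libraries and 98.3, 105, 102 and 111 CPM in the D6 libraries (log2 fold change −1.40 ± 0.06, adjusted p = 6.83e-18). Its D5 libraries lay around the mock median of 283 CPM and its D6 libraries between that and the D4 mean of 67.1 CPM. C1galt1, the enzyme that extends O-linked glycans, stood at 136, 127, 119.6 and 127 CPM in the D5 libraries and 54.9, 60.3, 59.1 and 72.2 CPM in the D6 libraries (log2 fold change −1.04 ± 0.08, adjusted p = 3.38e-12). Rora, a nuclear receptor of the circadian clock and of lipid metabolism, stood at 112, 92.7, 98 and 90.2 CPM in the D5 libraries and 51.1, 35.5, 65.5 and 48.4 CPM in the D6 libraries (log2 fold change −0.97 ± 0.14, adjusted p = 3.45e-04). Dmd, the dystrophin gene, stood at 18.3, 19.1, 19.1 and 19.8 CPM in the D5 libraries and 7.14, 9.08, 10.9 and 8.82 CPM in the D6 libraries (log2 fold change −1.09 ± 0.16, adjusted p = 3.48e-06). The spread within D5 was narrow in Dmd, and the lack of overlap in the mer8 genes chosen by fold was a condition of their choice. Gbp7, an interferon-induced GTPase with close paralogs, so that its counts are uncertain, stood at 18.1, 18.7, 26.1 and 27 CPM in the D5 libraries and 9.52, 9.08, 10.7 and 6.94 CPM in the D6 libraries (log2 fold change −1.32 ± 0.17, adjusted p = 3.20e-07).

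A few further mer8 genes had been picked in earlier work on D4, and they were lower with D6 than with D5 as well. Rnft1, a ubiquitin ligase of the endoplasmic reticulum, stood at 56.6, 50.2, 52.6 and 55.5 CPM in the D5 libraries and 25.6, 28.3, 37.3 and 32.6 CPM in the D6 libraries (log2 fold change −0.80 ± 0.10, adjusted p = 6.04e-07). Bcl2l2, an inhibitor of apoptosis of the BCL2 family, stood at 49.5, 50.9, 51.4 and 49.3 CPM in the D5 libraries and 30.3, 25.4, 33.8 and 28.3 CPM in the D6 libraries (log2 fold change −0.77 ± 0.10, adjusted p = 6.53e-07). Hsd17b6, a dehydrogenase of retinol and steroids, was at low levels, 4.47, 3.15, 2.88 and 2.96 CPM with D5 and 1.19, 1.86, 0.254 and 0.938 CPM with D6 (log2 fold change −1.59 ± 0.41, adjusted p = 0.00497). In all 3 genes the D6 libraries were below every D5 library.

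The share of genes that fell with D6 was higher among those with a seed match. Of 10558 tested genes with an annotated 3′-UTR, 1129 (10.7%) were called lower and 741 (7.02%) higher. Of the 326 genes whose strongest match was mer8, 73 (22.4%) were lower and 15 (4.60%) higher, with a median log2 fold change of −0.06. With mer7m8 the counts were 120 lower (16.9%) and 47 higher of 708, and with mer7A1 179 lower (16.2%) and 76 higher of 1103, with medians of −0.02 and −0.02. Of 8421 genes with none of the 3 matches, 757 (8.99%) were lower and 603 (7.16%) higher. A further 1690 of those held only the core letters TCTATA, which 32.5% of all annotated 3′-UTRs hold, and 225 of them (13.3%) were lower, against 532 of 6731 (7.90%) without even these letters. More sites went with a larger share, with 272 of 1723 genes (15.8%) lower at 1 site of any kind, 77 of 331 (23.3%) at 2 and 23 of 83 (27.7%) at 3 or more.

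Genes with a match also have longer 3′-UTRs, with a median of 3166 bases against 1663 without one. Within 4 equal bins of 3′-UTR length, from shortest to longest, 22.0%, 16.3%, 17.9% and 17.0% of genes with a match were lower with D6, against 8.64%, 9.65%, 8.85% and 8.79% of genes without. Genes without a match that held CTATATA, with A in place of the C opposite guide position 6, were lower in 126 of 965 (13.1%). With G in that place, as CTGTATA, the count was 123 of 1359 (9.05%). With T, as CTTTATA, it was 122 of 1403 (8.70%). These sets also kept genes with the core letters TCTATA, which CTATATA holds wherever a T precedes it. The base opposite position 6 is therefore not separated from the core letters here. Between D4 and mock at 10 nM, the shares lower for A, G and T were 22.0%, 15.7% and 17.9%. Genes without a match that held the letters pairing with positions 2 to 8 of the passenger strand (ACACTGT) were lower with D6 in 153 of 1752 (8.73%), near the background. Where the seed match lay in coding sequence and not in the 3′-UTR, 91 of 708 genes (12.9%) were lower and 67 (9.46%) higher.

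Read the other way, a match was present in 372 of 1129 genes called lower (33.0%, Wilson 95% interval 30.3% to 35.7%), in 138 of 741 called higher (18.6%, 16% to 21.6%) and in 2137 of 10558 tested (20.2%). These intervals cover counting only. Of the 20, 50 and 100 lower genes with the smallest p, 13, 33 and 51 had a match. About as many matches as in the tested genes were thus found among genes higher with D6, and 757 of the 1129 lower genes had none in the 3′-UTR searched.

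**Figure D2:**
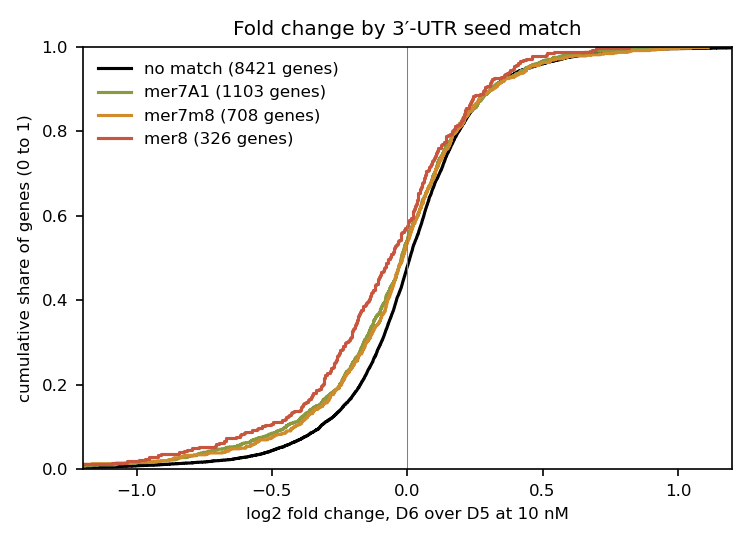
Cumulative share of genes (0 to 1) against the log2 fold change of D6 over D5 at 10 nM, by the strongest seed match in the 3′-UTR, drawn between −1.2 and 1.2. The mer8 curve (326 genes, median −0.06) lies to the left of the black curve of genes without a match (8421 genes, median 0.0095), and the 4 curves come together on the right.

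The same held within each library when the seed score was used, the mean log2 CPM of a set of genes minus that of 8840 background genes without a match. The mer8 score (345 genes) was 0.0751, 0.0451, 0.0622 and 0.0552 in the D5 libraries and −0.104, −0.0829, 0.0027 and −0.0373 in the D6 libraries, so that every D6 library was below every D5 library. The difference was −0.11 ± 0.02 (SE). The mock libraries scored 0.10 ± 0.02 (SD, n = 8) and the D4 libraries −0.17 ± 0.06 (SD, n = 4), so D6 lay between D5 and D4. The mer7m8 score (732 genes) differed by −0.04 ± 0.01 and the mer7A1 score (1153 genes) by −0.05 ± 0.01 (SE), and there too the 4 D6 libraries were below all D5 libraries. No p is given for these scores, since the sets were chosen with earlier results known.

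**Figure D3:**
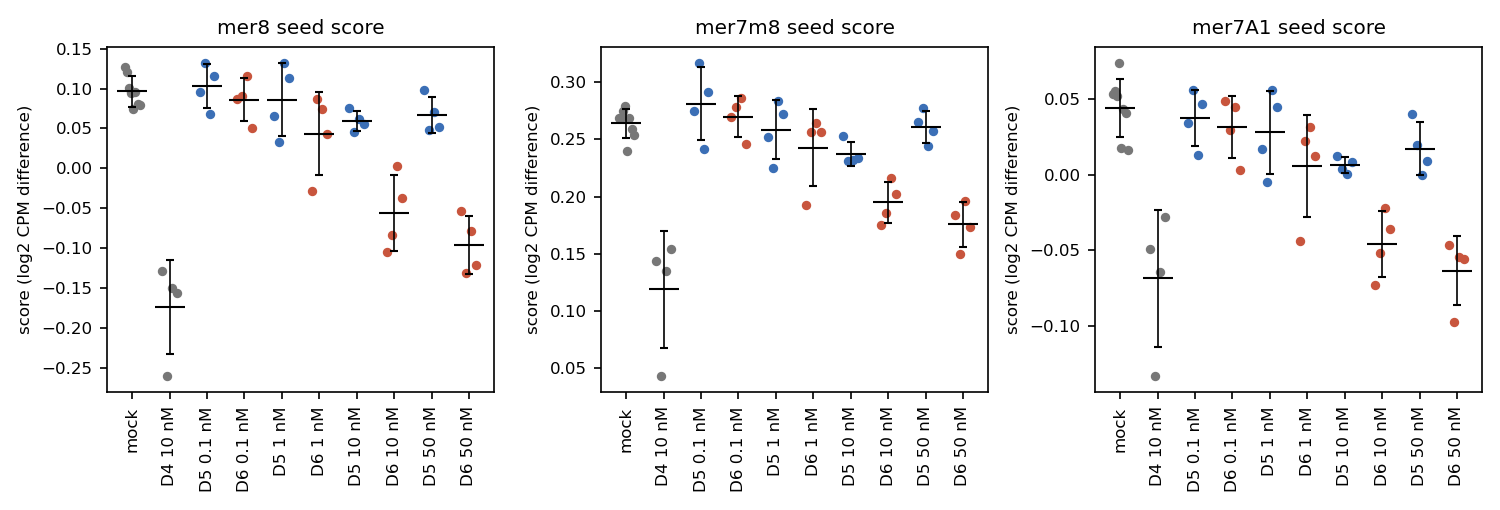
Seed score of each library (points, in log2 CPM) with the mean and SD of each group (bars), for mer8, mer7m8 and mer7A1 genes, in mock (8 libraries), D4 at 10 nM and D5 and D6 at 4 doses (4 libraries each). At 10 and 50 nM the 4 D6 points lie below the 4 D5 points in all 3 panels, and at 0.1 and 1 nM the groups overlap.

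Other doses gave the same comparison in other libraries. At 50 nM, 2253 of 11034 genes (20.4%) differed, with 1342 lower (12.2%) and 911 higher (8.26%) with D6, and at 1 nM 18 of 11056 (0.163%), of which 17 were lower. At 0.1 nM 0 of 11136 genes (0%) passed edgeR's test, with 356 at an unadjusted p under 0.05. Of the 1148 genes lower at 10 nM, 894 were also called lower at 50 nM, which is 77.9% of the 10 nM list and 66.6% of the 50 nM list, and 0 were called higher. For the 770 higher genes the count was 444, or 57.7% and 48.7% of the lists. Of the 1142 lower genes tested at 50 nM, 1130 (98.9%) were below 0 there, against 47.1% of all genes tested. The median log2 fold change of the lower genes went from −0.42 at 10 nM to −0.46 at 50, −0.08 at 1 and −0.03 at 0.1 nM. For the higher genes it was 0.39, 0.33, 0.05 and 0.02. Of the 17 genes lower at 1 nM, 16 were among those lower at 10 nM, Lox, Nck1, Kpna6, Uhmk1, Tgfbr1, Ajuba and Ccne1 among them.

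The mer8 score differed by −0.16 ± 0.02 (SE) at 50 nM, without overlap of libraries, and by −0.04 ± 0.03 at 1 nM and −0.02 ± 0.02 at 0.1 nM, with overlap. The change of the D6 to D5 difference between 10 and 50 nM was tested gene by gene, and 2 of 11413 genes (0.0175%) passed. Atp13a3, an ATPase of endosomes that transports polyamines, had log2 fold changes of −0.51 at 10 nM and −1.02 at 50 nM, a change of −0.51 ± 0.09 (adjusted p = 0.0147). Mmgt1, a subunit of the complex that inserts membrane proteins into the endoplasmic reticulum, had log2 fold changes of −0.88 and −1.79, a change of −0.91 ± 0.16 (adjusted p = 0.0147). In both genes the difference was thus greater at the higher dose.

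**Figure D4:**
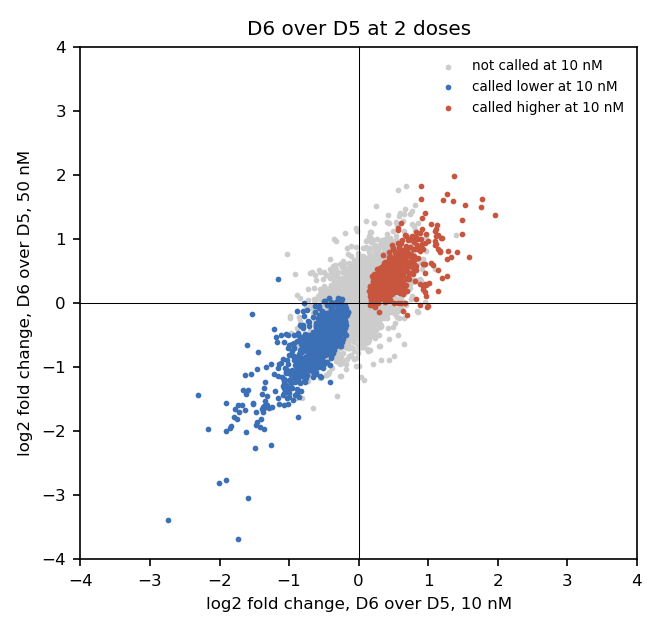
Log2 fold change of D6 over D5 at 50 nM (vertical) against that at 10 nM (horizontal) for the 10938 genes tested at both doses, with genes called lower at 10 nM in blue and called higher in red. No library is shared between the axes, and 894 blue and 444 red genes were also called in the same direction at 50 nM.

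Genes of the extracellular matrix, the cytoskeleton and the YAP and TGF-beta pathways were among those lower with D6. YAP and TAZ are transcriptional coactivators held back by the Hippo kinases, and TGF-beta signals through a pair of receptor kinases to drive matrix genes. Of 26 members tested, 12 fell (46.2%) and 0 rose, where 10.3% of all genes tested were lower and 6.94% higher, and the median log2 fold change was −0.27 against 0.0046. The receptors came first. Tgfbr1, the type I TGF-beta receptor, stood at 40.4, 35.3, 30.8 and 33.4 CPM in the D5 libraries and 12.7, 9.29, 13.7 and 14.4 CPM in the D6 libraries (log2 fold change −1.47 ± 0.14, adjusted p = 6.78e-10), and Tgfbr2, the type II receptor, at 261, 273, 276 and 265 CPM in the D5 libraries and 123, 122, 129 and 132 CPM in the D6 libraries (log2 fold change −1.08 ± 0.06, adjusted p = 1.96e-15). Axl, a receptor tyrosine kinase, stood at 21.9, 24, 32.5 and 25.9 CPM in the D5 libraries and 7.53, 9.5, 9.39 and 8.07 CPM in the D6 libraries (log2 fold change −1.59 ± 0.16, adjusted p = 1.70e-09). In each receptor the D6 libraries were below all D5 libraries, and each had a seed match in its 3′-UTR (mer7m8 in Tgfbr1 and Tgfbr2, mer7A1 in Axl). Ajuba, an inhibitor of the Hippo kinases, stood at 146, 142, 151 and 158 CPM in the D5 libraries and 86.4, 98.7, 106 and 105 CPM in the D6 libraries (log2 fold change −0.59 ± 0.07, adjusted p = 1.15e-07) and had no match.

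Of the regulators in the same list, Wwtr1, which encodes TAZ, fell from 67.6 ± 7.44 to 38.9 ± 5.04 CPM (for CPM, mean ± SD, n = 4, as below). Its log2 fold change was −0.79 ± 0.10 (SE, adjusted p = 1.76e-07). Yap1 had a log2 fold change of 0.10 and did not pass. Thbs1, the matrix glycoprotein thrombospondin, fell from 259 ± 82.8 to 103 ± 18.2 CPM (log2 fold change −1.32 ± 0.26, adjusted p = 0.0161) and had no seed match. Amotl2, Smad7, Actb, Itga5 and Tubb6 fell by smaller amounts, with log2 fold changes of −0.49, −0.48, −0.37, −0.35 and −0.24, and Ccn1, Ccn2 and Ankrd1, the best known YAP targets, were at −0.09, −0.11 and −0.14 and did not pass. The call of Smad7 was present in 1 of the 8 fits that leave out a library, and the other calls named were present in all 8. At 50 nM 13 of 26 members were lower and 0 higher, where 12.2% of all genes tested were lower and 8.26% higher. As many members of each list were tested at 50 nM as at 10 nM, so that the counts at 50 nM given for the lists below stand against the same shares.

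**Figure D5:**
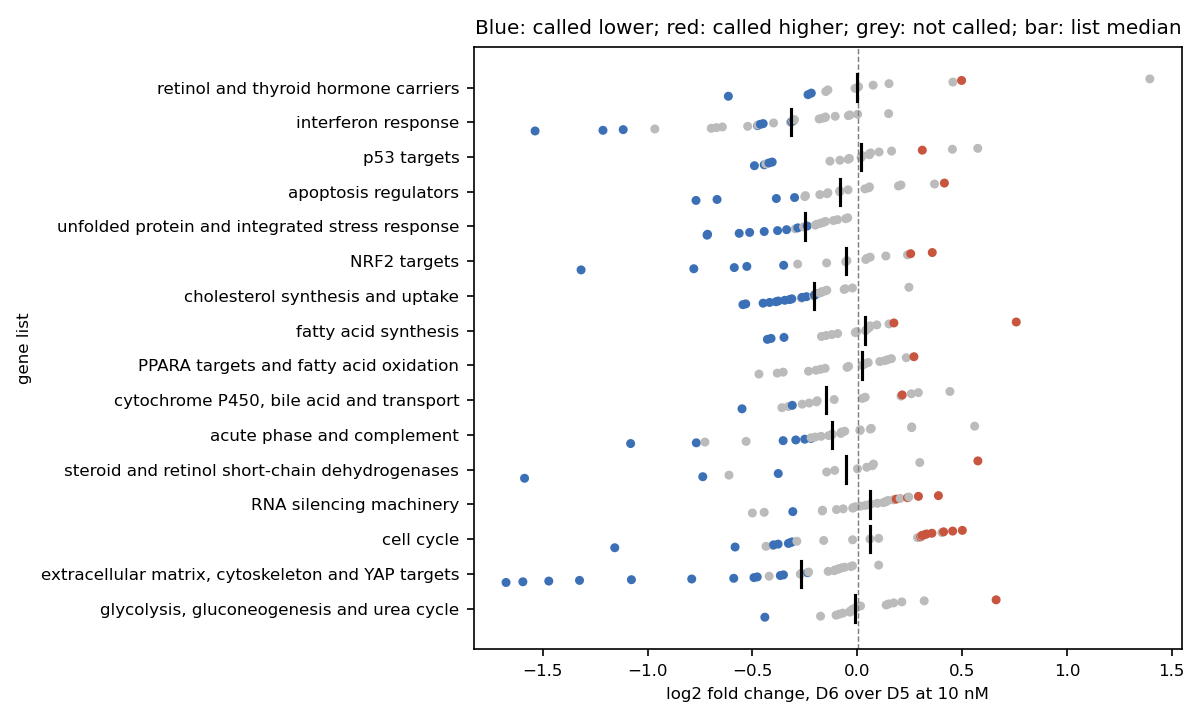
Log2 fold change of D6 over D5 at 10 nM for each tested member of 16 gene lists, with genes called lower in blue, called higher in red and not called in grey, a bar at the median of each list and a dashed line at the median of all genes tested (0.0046). The extracellular matrix, cholesterol, stress and interferon lists hold blue and no red points, and the cell cycle list holds 7 blue and 8 red.

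Many cholesterol genes also fell, each by a small amount. Hepatocytes make cholesterol through the mevalonate pathway and take it up from lipoproteins, both under the transcription factor SREBP2, which Insig proteins hold in the endoplasmic reticulum. Of 25 members, 14 were lower with D6 (56%, against 10.3% of all genes tested) and 0 higher, with a median of −0.21. Insig1 stood at 286, 312, 286 and 288 CPM in the D5 libraries and 185, 248, 179.7 and 186 CPM in the D6 libraries (log2 fold change −0.55 ± 0.08, adjusted p = 5.98e-06). D6 replicate 2 was the highest of its group, yet below every D5 library. Sc5d, a desaturase of the last steps of synthesis, stood at 220.3, 248, 225 and 209 CPM in the D5 libraries and 157, 162, 148 and 153 CPM in the D6 libraries (log2 fold change −0.53 ± 0.06, adjusted p = 1.30e-07), and Lss, which closes the sterol rings, at 222, 256, 228 and 232 CPM in the D5 libraries and 189.9, 176, 158 and 158 CPM in the D6 libraries (log2 fold change −0.45 ± 0.07, adjusted p = 5.63e-06). Stard4, a cholesterol transfer protein with a mer7m8 match, stood at 124, 117, 106 and 122 CPM in the D5 libraries and 80.9, 88.6, 90.3 and 89.5 CPM in the D6 libraries (log2 fold change −0.42 ± 0.07, adjusted p = 5.40e-05). No libraries overlapped in these genes. The mock medians of Insig1, Sc5d and Lss (259.6, 199.6 and 201.4 CPM) lay between the D5 and D6 libraries. That of Stard4 (115.8 CPM) lay among the D5 libraries. Others that fell included the synthesis enzymes Mvd (−0.39), Hsd17b7 (−0.38), Hmgcs1 (−0.32), Pmvk (−0.31), Cyp51 (−0.26), Msmo1 (−0.24) and Fdft1 (−0.20), with log2 fold changes in parentheses. Of these, Hsd17b7 and Hmgcs1 kept the call in all 8 fits that leave out a library, Cyp51 in 7, Mvd and Msmo1 in 6, Fdft1 in 4 and Pmvk in 3. Srebf2, which encodes SREBP2, was at −0.17 and did not pass. The count of 14 fell to 8 without D5 replicate 2 and to 8 without D6 replicate 3. At 50 nM 10 members were lower and 1 higher.

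Of 19 members of the fatty acid synthesis list, 3 were lower (15.8%) and 2 higher (10.5%), with a median of 0.04, shares near those of all genes tested (10.3% and 6.94%). Acly, which supplies acetyl-CoA from citrate, stood at 804, 879, 856 and 892 CPM in the D5 libraries and 630.2, 668, 577 and 660.3 CPM in the D6 libraries (log2 fold change −0.43 ± 0.06, adjusted p = 8.42e-07), and Fasn, the fatty acid synthase, with a mer7m8 match, at 701, 896, 733 and 832 CPM in the D5 libraries and 583, 660.2, 574 and 548 CPM in the D6 libraries (log2 fold change −0.41 ± 0.07, adjusted p = 4.99e-05). Lpin1, a phosphatidate phosphatase with a mer7m8 match, fell from 242, 246, 236 and 242 CPM to 216, 189, 163 and 185 CPM (log2 fold change −0.35 ± 0.07, adjusted p = 2.26e-04). Acacb, the acetyl-CoA carboxylase of the mitochondrial surface, rose from 30.2, 27.5, 34.7 and 22.6 CPM to 50.4, 47.1, 54 and 42 CPM (log2 fold change 0.76 ± 0.12, adjusted p = 8.54e-06). Libraries did not overlap in these 4 genes. The mock medians of Acly and Fasn (787.5 and 686.5 CPM) lay between the D5 and D6 libraries. That of Lpin1 (195.6 CPM) lay among the D6 libraries, and that of Acacb (20.65 CPM) below both groups. Scd1, a desaturase, was called higher (0.17), which held in 2 of the 8 fits that leave out a library. Of 19 PPARA targets and oxidation genes 0 were lower and 1 higher, with a median of 0.02, while 2 were lower and 0 higher without D5 replicate 3 or D6 replicate 2, and 0 were lower and 2 higher without D6 replicate 3. That gene was Cpt1a, the carnitine transferase at the entry of oxidation, at 59.3, 65.4, 60 and 66.7 CPM in the D5 libraries and 78.5, 83, 64.7 and 74.8 CPM in the D6 libraries (log2 fold change 0.27 ± 0.08, adjusted p = 0.0198). Its libraries overlapped, and the call was lost without D5 replicate 1 or 3 or D6 replicate 1 or 2 (adjusted p of 0.0559, 0.0595, 0.0591 and 0.0792). Plin2, Acaa2 and Creb3l3 had log2 fold changes of −0.17, 0.23 and −0.47 and did not pass. At 50 nM the synthesis list had 4 lower and 1 higher and the oxidation list 3 lower and 1 higher.

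Some genes of the unfolded protein response and the integrated stress response fell. These programmes raise chaperones of the endoplasmic reticulum and the ATF4 targets under stress. Of 20 members, 9 were lower (45%, against 10.3% of all genes tested) and 0 higher, with a median of −0.25. Hspa5, the chaperone BiP, stood at 1679, 1701, 1864 and 1782 CPM in the D5 libraries and 1307, 1456, 1294 and 1314 CPM in the D6 libraries (log2 fold change −0.38 ± 0.06, adjusted p = 5.23e-06), and Calr, the chaperone calreticulin, at 1641, 1711, 1822 and 1650.0 CPM in the D5 libraries and 1225, 1448, 1359 and 1345 CPM in the D6 libraries (log2 fold change −0.34 ± 0.06, adjusted p = 5.30e-05). Manf, a secreted stress protein, stood at 101, 111, 142 and 118 CPM in the D5 libraries and 79.1, 89, 73.6 and 87 CPM in the D6 libraries (log2 fold change −0.51 ± 0.09, adjusted p = 4.55e-05), and Trib3, a pseudokinase induced by ATF4, at 64.7, 51.3, 47.9 and 48.7 CPM in the D5 libraries and 35.7, 32.8, 24.6 and 34.5 CPM in the D6 libraries (log2 fold change −0.71 ± 0.11, adjusted p = 1.46e-05). None of the 4 had a seed match, and their libraries did not overlap. The mock median of Trib3 (45.97 CPM) lay between the D5 and D6 libraries. Those of Hspa5, Calr and Manf (1699, 1671 and 114.3 CPM) lay among the D5 libraries. Chac1 (−0.72), Dnajb9 (−0.56), Sesn2 (−0.44), Xbp1 (−0.28) and Atf4 (−0.24) were the others that fell, and Ddit3, Herpud1 and Asns were at −0.30, −0.19 and −0.20 and did not pass. Chac1 lost its call without D5 replicate 2, and without D6 replicate 2 the count rose to 14. At 50 nM 12 members were lower and 0 higher.

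Some interferon response genes were lower at 10 nM. These genes are induced by interferon and by sensors of foreign RNA. Of 27 members, 8 were lower (29.6%, against 10.3% of all genes tested) and 0 higher, with a median of −0.32. With all libraries of the series in a single fit, 1 member was called lower and 0 higher. Bst2, a membrane protein that tethers virus particles, stood at 227, 235, 277 and 246 CPM in the D5 libraries and 173, 194, 179 and 159.8 CPM in the D6 libraries (log2 fold change −0.47 ± 0.07, adjusted p = 3.04e-06), and Rigi, the sensor RIG-I, at 147, 152, 179 and 167 CPM in the D5 libraries and 128, 138, 129 and 125 CPM in the D6 libraries (log2 fold change −0.30 ± 0.07, adjusted p = 0.00153). Their libraries did not overlap. Usp18, which removes ISG15 from proteins, stood at 85.3, 104.3, 131 and 121 CPM in the D5 libraries and 80.9, 89.6, 76.1 and 72.4 CPM in the D6 libraries with overlap (log2 fold change −0.46 ± 0.10, adjusted p = 0.00236), and Ifit3b, which has a near-identical copy and is uncertain, at 3.4, 3.15, 10.7 and 7.66 CPM in the D5 libraries and 2.77, 0.826, 2.28 and 2.63 CPM in the D6 libraries (log2 fold change −1.54 ± 0.39, adjusted p = 0.0064). D5 replicates 3 and 4 were the highest libraries for all 4 genes. Isg15, Oas1a, Ifit2 and Cxcl10 also fell (−1.12, −0.45, −0.31 and −1.21), and each lost its call in at least 2 of the 8 fits that leave out a library. The count was 5 without D5 replicate 3, D5 replicate 4, D6 replicate 1 or D6 replicate 4. Ifit1, Oasl2 and Rsad2 were at −0.96, −0.70 and −0.64 and did not pass. At 50 nM 1 member was lower and 1 higher, with a median of −0.0033, and whether the list differed between doses was not tested.

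In the NRF2 list, of oxidative stress defence, 5 of 16 members were lower (31.2%, against 10.3% of all genes tested) and 2 higher (12.5%, against 6.94%), with a median of −0.05. Slc7a11, the cystine transporter that feeds glutathione synthesis, stood at 422, 425, 343 and 353 CPM in the D5 libraries and 172, 156, 153 and 135 CPM in the D6 libraries (log2 fold change −1.32 ± 0.08, adjusted p = 3.33e-13). It had 1 mer7m8 and 3 mer7A1 sequences. Gclm, a subunit of the enzyme that makes the glutathione precursor, with 3 mer7A1 sequences, stood at 138, 149, 138 and 146 CPM in the D5 libraries and 98.7, 91.7, 82.7 and 103 CPM in the D6 libraries (log2 fold change −0.59 ± 0.07, adjusted p = 1.45e-07), and Srxn1, sulfiredoxin, with none, at 441, 487, 413 and 499.5 CPM in the D5 libraries and 340.0, 366, 256 and 308 CPM in the D6 libraries (log2 fold change −0.53 ± 0.08, adjusted p = 1.47e-04). Gstm1, a glutathione transferase with close paralogs and therefore uncertain, rose from 189.5, 166, 175 and 176 CPM to 257, 238, 204 and 200.3 CPM (log2 fold change 0.36 ± 0.07, adjusted p = 4.02e-04). The libraries did not overlap in these genes. The mock medians of Slc7a11 and Srxn1 (326.2 and 375.5 CPM) lay between the D5 and D6 libraries. That of Gclm (137.8 CPM) lay among the D5 libraries, and that of Gstm1 (161.9 CPM) below both groups. Nqo1 (−0.78) and Osgin1 (−0.35) also fell and Ephx1 (0.25) rose, the last in 1 of the 8 fits that leave out a library. Hmox1, Txnrd1 and Gclc, which are standard NRF2 targets, were at 0.04, −0.05 and 0.14 and did not pass. At 50 nM 5 were lower and 3 higher.

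The cell cycle list held calls in both directions. Of 25 members, 7 were lower (28%, against 10.3% of all genes tested) and 8 higher (32%, against 6.94%), with a median of 0.06. Lower were the cyclins and kinases Ccne1, Ccne2, Ccnd1, Ccnd3, Cdk1 and Cdk2 and the topoisomerase Top2a. Higher were Pcna, E2f1 and all 6 members of the replicative helicase listed, Mcm2 to Mcm7. Ccne1, which encodes a cyclin of entry into DNA synthesis, stood at 14.9, 12.8, 20.1 and 15.8 CPM in the D5 libraries and 5.75, 5.99, 7.87 and 8.82 CPM in the D6 libraries (log2 fold change −1.16 ± 0.19, adjusted p = 1.93e-05), and Ccnd1, a cyclin of the G1 phase, at 486, 514, 506 and 583 CPM in the D5 libraries and 403, 411, 422 and 431 CPM in the D6 libraries (log2 fold change −0.32 ± 0.06, adjusted p = 1.34e-04). Their libraries did not overlap. Mcm3 rose from 49.3, 59.9, 56.5 and 63.7 CPM to 72.2, 75.3, 83.5 and 82.9 CPM without overlap (log2 fold change 0.46 ± 0.09, adjusted p = 1.53e-04), and Mcm6 from 136, 139.6, 140.1 and 168 CPM to 157, 199, 177 and 198 CPM with overlap (log2 fold change 0.33 ± 0.07, adjusted p = 0.00148). The lower count went from 7 to 4 without D6 replicate 1 and to 3 in sequencing run 1 alone, and Ccne2, Cdk1, Cdk2, Top2a, Mcm5 and E2f1 each lost the call in at least 1 of those fits. At 50 nM 6 were lower and 5 higher.

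Of 19 apoptosis regulators, 4 were lower (21.1%) and 1 higher (5.26%), with a median of −0.08. Of 20 p53 targets, 4 were lower (20%) and 1 higher (5%), with a median of 0.02, beside 10.3% and 6.94% of all genes tested. Xiap, an inhibitor of caspases with a mer8 site, stood at 178, 141, 159 and 161 CPM in the D5 libraries and 88.6, 91.7, 114 and 106 CPM in the D6 libraries (log2 fold change −0.67 ± 0.08, adjusted p = 1.08e-07). Bcl2l2, given above, was another of the lower members. Bid, a promoter of death, stood at 64.9, 66.4, 59 and 65.3 CPM in the D5 libraries and 50.1, 45.8, 46.2 and 52 CPM in the D6 libraries (log2 fold change −0.39 ± 0.08, adjusted p = 0.00113), and Cflar, an inhibitor of caspase 8, at 244, 227, 261 and 238 CPM in the D5 libraries and 178, 191, 218 and 198 CPM in the D6 libraries (log2 fold change −0.30 ± 0.07, adjusted p = 0.00115). No libraries overlapped in these. Of the p53 targets, Ccng1, with a mer7m8 match, stood at 409.6, 381, 339.5 and 385 CPM in the D5 libraries and 269, 254, 266 and 283 CPM in the D6 libraries (log2 fold change −0.49 ± 0.06, adjusted p = 2.48e-07), and Perp, a membrane protein without a match, at 227, 233, 229 and 220.0 CPM in the D5 libraries and 167, 169.7, 168 and 177 CPM in the D6 libraries (log2 fold change −0.41 ± 0.06, adjusted p = 4.51e-06). Trp53inp1 and Sesn2 had log2 fold changes of −0.42 ± 0.07 (adjusted p = 5.38e-05) and −0.44 ± 0.10 (adjusted p = 0.0013), and Btg2 was higher (0.31). Cdkn1a and Mdm2, the most used p53 readouts, were at −0.04 and 0.02 and did not pass. At 50 nM each list had 4 lower and 2 higher.

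Among secreted liver proteins, 6 of 25 acute phase and complement genes were lower (24%, against 10.3% of all genes tested) and 0 higher (median −0.12). Fgg, the gamma chain of fibrinogen, stood at 236, 253, 289.9 and 263 CPM in the D5 libraries and 122, 115, 130.2 and 123 CPM in the D6 libraries (log2 fold change −1.08 ± 0.07, adjusted p = 1.64e-14) without a seed match. The mock libraries had a median of 218 CPM and D4 a mean of 106 CPM, so that D5 lay above mock and D6 near D4. The other fibrinogen chains Fga and Fgb were at −0.73 and −0.20 and did not pass. C4b, a complement component with a near-identical copy, fell from 554, 473, 536 and 453 CPM to 463, 419, 409 and 345 CPM with overlap (log2 fold change −0.29 ± 0.08, adjusted p = 0.0106). Serpina3m, of a paralog cluster (log2 fold change −0.22 ± 0.06, adjusted p = 0.00829), lost the call without D5 replicate 3 (adjusted p = 0.0606). Il1rn (−0.77) and Serpina3n (−0.25) also fell, and each lost the call in at least 2 of the 8 fits that leave out a library. At 50 nM 9 were lower and 0 higher.

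The retinol and thyroid hormone carriers, the company of transthyretin, had 3 of 12 members lower (25%, against 10.3% of all genes tested) and 1 higher, with a median of −0.0020. The counts were 3 and 2 without D5 replicate 1, 3 and 0 in sequencing run 2 alone, and 2 and 2 with all libraries of the series in a single fit. Bco1, which cleaves carotene to retinal and has a mer8 site, stood at 168, 179, 195 and 195 CPM in the D5 libraries and 116, 134, 106 and 121 CPM in the D6 libraries (log2 fold change −0.61 ± 0.07, adjusted p = 4.39e-08). Apoa1, the apolipoprotein of HDL, stood at 842, 766, 901 and 765 CPM in the D5 libraries and 694, 684, 687 and 702 CPM in the D6 libraries (log2 fold change −0.23 ± 0.06, adjusted p = 0.00408), and Rbp4 was given above. Rdh10, a retinol dehydrogenase, rose from 31.3, 34.7, 22.6 and 35.7 CPM to 43.2, 49.1, 44.4 and 38.5 CPM (log2 fold change 0.50 ± 0.12, adjusted p = 0.00236). No libraries overlapped in these 3 genes. Of 12 tested steroid and retinol dehydrogenases, 3 were lower (25%) and 1 higher (median −0.05), and without D6 replicate 2 the counts were 5 and 0. Besides Hsd17b6, Hsd17b2, which inactivates sex steroids, fell from 26.8, 23.1, 21.2 and 20.9 CPM to 16.9, 12.6, 11.7 and 13.3 CPM (log2 fold change −0.74 ± 0.15, adjusted p = 3.26e-04), and Hsd17b7, a step of cholesterol synthesis, from 113, 128, 121 and 134 CPM to 94, 102, 95.2 and 90 CPM (log2 fold change −0.38 ± 0.07, adjusted p = 1.88e-04). Srd5a1, a steroid reductase, was higher with overlap (log2 fold change 0.58 ± 0.18, adjusted p = 0.0224), and lost the call without D5 replicate 1, 3 or 4 or D6 replicate 2 (adjusted p of 0.0577, 0.0672, 0.0864 and 0.0586). At 50 nM the carriers had 3 lower and 2 higher and the dehydrogenases 4 lower and 1 higher.

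Of 12 tested hepatocyte markers, 5 were lower (41.7%, against 10.3% of all genes tested) and 0 higher (median −0.27): Cebpa (−0.61), Cyp2e1 (−0.55), Apob (−0.46), Ahsg (−0.31) and Apoa1 (−0.23), while Alb, at 14343 ± 787 CPM with D5 and 15038 ± 655 CPM with D6, did not pass. Of 16 cytochrome P450, bile acid and transport genes, 2 were lower (12.5%) and 1 higher (6.25%), near the shares of all genes tested (median −0.15), and 0 were lower in sequencing run 1 alone. The lower count was 4 without D6 replicate 2 and 1 without D5 replicate 3 or 4 or D6 replicate 1 or 4. The higher count was 2 without D5 replicate 1 or D6 replicate 4, and 0 without D5 replicate 2, 3 or 4 or D6 replicate 1 or 2. Cyp2f2 stood at 66.4, 80.5, 81.8 and 77.5 CPM in the D5 libraries and 56.1, 68.8, 57.6 and 63 CPM in the D6 libraries with overlap (log2 fold change −0.31 ± 0.09, adjusted p = 0.00865). Cyp2e1, the ethanol-metabolising P450 (log2 fold change −0.55 ± 0.17, adjusted p = 0.0309), lost the call without D5 replicate 3 or 4 or D6 replicate 1 or 4 (adjusted p of 0.0968, 0.118, 0.105 and 0.113). Cyp3a13 (log2 fold change 0.21 ± 0.07, adjusted p = 0.0325) lost it without D5 replicate 2, 3 or 4 or D6 replicate 1 or 2 (adjusted p of 0.0701, 0.0782, 0.110, 0.179 and 0.0880). Libraries overlapped in both. Cyp27a1, a bile acid synthesis enzyme, was at 0.26 (adjusted p = 0.0546). Of 18 glycolysis, gluconeogenesis and urea cycle genes, 1 was lower (5.56%) and 1 higher (5.56%), below the shares of all genes tested (median −0.01). Pkm, a pyruvate kinase, fell from 307, 336, 299 and 341 CPM to 208, 242, 252 and 239 CPM (log2 fold change −0.44 ± 0.06, adjusted p = 3.61e-06) without overlap. Ass1 and Pcx, of the urea cycle and gluconeogenesis, were at 0.14 and 0.17 and did not pass. At 50 nM, where 12.2% of all genes tested were lower and 8.26% higher, the P450 list had 7 of 16 lower and 1 higher, the glycolysis list 2 of 18 lower and 1 higher, and the hepatocyte markers 6 of 12 lower and 0 higher.

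Of 26 members of the machinery that carries out RNA silencing, 1 was lower (3.85%, against 10.3% of all genes tested) and 4 higher (15.4%, against 6.94%), with a median of 0.06, and 2 were higher with no filter on low counts or without any 1 of D5 replicates 2 to 4 or D6 replicates 2 to 4. The lower count was 2 without D5 replicate 1 or D6 replicate 3. Cnot7, a deadenylase, rose from 74.7, 70, 67 and 67 CPM to 78.3, 80.5, 89.1 and 91.4 CPM (log2 fold change 0.29 ± 0.08, adjusted p = 0.00734). Tnrc6b, which links Argonaute to deadenylation, fell from 76.6, 78, 72.1 and 70.8 CPM to 67.6, 57.4, 60.6 and 53.5 CPM (log2 fold change −0.31 ± 0.08, adjusted p = 0.00837), a call lost without D6 replicate 4 (adjusted p = 0.0524). The libraries of neither gene overlapped. Dicer1, which makes microRNAs (log2 fold change 0.24 ± 0.07, adjusted p = 0.0148), lost its call without D5 replicate 3 (0.0535) or 4 (0.0531), and Ddx6, a helicase of decay bodies (log2 fold change 0.19 ± 0.06, adjusted p = 0.0292), without D5 replicate 2 or D6 replicate 2, 3 or 4 (adjusted p of 0.120, 0.0575, 0.0879 and 0.0636). Tarbp2, a partner of Dicer (0.39), was called in 2 of the 8 fits that leave out a library. Ago2, the Argonaute that cleaves targets, was at −0.17, and Asgr1 and Asgr2, the receptor that takes up GalNAc conjugates, at −0.44 and −0.50, and none of them passed. At 50 nM 3 were lower and 1 higher.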

How the data were processed

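Sequenced was RNA of cultured mouse hepatocytes, taken 24 h after they were transfected. It was isolated on magnetic beads and made into libraries with a total RNA kit. The authors filtered and trimmed the reads, aligned them to the mouse genome with STAR, assigned the reads with a unique alignment to genes with featureCounts (version 2.0.2, genome build GRCm39, from the submitters' processing notes), and deposited whole-number counts per gene for each sequencing run. The 2 runs of each library were summed, since they differed by sampling noise alone (chi-square per degree of freedom of 0.998 to 1.05, against 2.72 to 5.35 between replicates). Tables of the authors' own DESeq2 (version 1.32.0) comparisons hold fold changes, their errors, p-values and mean normalized counts and were not used. The strand setting of the counting is not given in the sources used here, so that overlapping and antisense genes are uncertain. Of the genes listed, 55416 in all, 54749 were in the annotation, and 92 ERCC spike-ins (0.522% to 1.14% of the counts of the 8 libraries) entered neither library sizes nor tests.

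Each comparison was fitted on the counts of its own libraries alone with edgeR 4.0.16 in R 4.3.3 (filterByExpr, TMM, robust quasi-likelihood fit), with the treatment label as the group and Benjamini-Hochberg adjustment over all genes tested. The alternatives were DESeq2 1.42.0 with shrunken fold changes, the authors' test, and edgeR with RLE scaling, with no filter, without each library in turn, with a block for the replicate number, over every library in the series, and on each run by itself. The dose comparison used an interaction term. The ± of a log2 fold change is its standard error (SE). It was taken as the absolute log2 fold change divided by the square root of the quasi-likelihood F. Log2 CPM had a prior count of 2. Seed matches were searched in the longest 3′-UTR per gene of GENCODE M39, with the canonical transcript as an alternative, and seed scores took genes with a mean of at least 1 CPM. Ttr was tested with a two-sided exact permutation test over the 70 splits of 8 libraries. The edgeR fit was tried on counts simulated from the 8 libraries, with 200 of 11095 genes changed. It called 90%, 80% and 54% of genes with log2 changes of −2, −1 and −0.5, and 98% of those with 1. Of the unchanged genes, 5 were called. Many differences near −0.5 may thus go uncalled. Tables were made with Python 3.11.15, numpy 2.4.6, pandas 2.3.3, scipy 1.17.1 and matplotlib 3.10.9.

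Named were Ttr, Rbp4 and Gapdh, the 10 largest decreases and increases among protein-coding genes (called, mean of at least 5 CPM, no overlap of libraries), the 6 mer8 genes with the largest decrease under the same conditions, 5 mer8 genes from earlier work on D4, and up to 4 members of each of 16 pathway lists by smallest p. Other members were named after their values were seen, and some members of the lists are counted but not reported here by name. The members, lists and tests were chosen with earlier results of these data known. With 3826700 to 5840357 counts per library, genes of few counts are imprecise, and intervals cover counting error only.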

Additional observations from a re-analysis of the deposited data

Results flagged for a closer look

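In 202 groups of 4 libraries or more, across depth, seed scores and the CPM of named genes, 12 held a highest library that stood apart from the others by Dixon's criterion, where chance gives about 1 in 20 groups. D5 replicate 4 had the most counts on genes (5840357), and its Mcm6 level of 168 CPM was above the 136, 139.6 and 140.1 CPM of the other D5 libraries. D5 replicate 1 had a mer7m8 seed score of 0.253, 455 CPM of Rbp4 and 10.6 CPM of St14. D5 replicate 2 stood apart in Insig1 (312 CPM) and Srd5a1 (12.6 CPM). Of the D6 libraries, replicate 1 was apart in Itgb4 (51.9 CPM), replicate 2 in Hspa5 (1456 CPM) and Insig1 (248 CPM), and replicate 4 in Slc22a26 (13.1 CPM). In Rbp4, Insig1 and Hspa5 the D6 libraries were nevertheless below every D5 library. Among the D5 libraries at 0.1 nM, replicate 2 had 73.4 CPM of Ttr, from 335 counts where the others had 6 to 17.

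The difference between D6 and D5 changed with dose in 2 genes by edgeR's interaction term. For Atp13a3 the difference at 50 nM minus that at 10 nM was −0.51 ± 0.09 in log2 (adjusted p = 0.0147), with means of 359 CPM (D6) and 513 CPM (D5) at 10 nM and 283 and 575 CPM at 50 nM. For Mmgt1 it was −0.91 ± 0.16 (adjusted p = 0.0147), with 22.7 and 41.8 CPM at 10 nM and 14.3 and 49.8 CPM at 50 nM.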

How the results depend on the processing

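The excess of lower over higher genes with D6 was present under all 15 alternatives run. Against 1918 genes called (1148 lower, 770 higher), DESeq2 called 1514 (968 lower, 546 higher, 1490 of the 1514 shared), RLE scaling 1923, all libraries in one fit 1900, no filter 1787, run 1 alone 1357 (507 higher) and run 2 alone 1433. Leaving out 1 library gave 1544 to 1834 genes called, 965 to 1105 lower and 579 to 730 higher, and 32.1% to 34.3% of the lower genes then had a seed match. Of 91 named genes in the fit, 84 were called, 67 of these under all 15 alternatives. Of the 84 called, 0 changed sign, and sign changes in genes called in neither fit were not counted. The mer8 score difference was −0.15 on canonical 3′-UTRs and −0.11 on the longest, and ran from −0.13 to −0.10 without 1 library. The Ttr difference at 10 nM was −0.91 in run 1 alone (exact permutation p = 0.0286), −0.44 in run 2 alone (0.257) and −0.97 to −0.63 without 1 library, where 3 against 4 cannot go below 0.0571. At 0.1 nM it turned to 0.72 without D5 replicate 2, an alternative chosen after seeing the data, as was leaving out libraries for the pathway lists. The cause of these shifts was not tested. With the replicate number as a block, 2475 genes were called (1427 lower, 1048 higher), and 30.3% of the lower genes had a match. The deviations of same-numbered libraries correlated at 0.088, 0.093, 0.10 and 0.079, only 1 of them over 0.1. The labels do not say what the replicate number stands for. Each of the 8 correlated best with its own number, a hint from the data and not from the design. The replicate block moved the lower counts of the stress response list from 9 to 13, the dehydrogenases from 3 to 5, RNA silencing from 1 to 3, PPARA targets from 0 to 2, P450 genes from 2 to 3 and acute phase genes from 6 to 9. It moved the higher counts of the NRF2 list from 2 to 4, of the carriers, P450 and glycolysis lists from 1 to 2 each and of the acute phase list from 0 to 1. In place of 8 interferon genes lower, all libraries in one fit called 1, DESeq2 5 and run 1 alone 5. Run 1 alone called 3 cell cycle genes lower in place of 7 and 0 P450 genes in place of 2. Genes under about 5 CPM rest on few counts, and how small a difference could be detected in them was not tested.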

Other observations

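Of the genes outside the lists and named sets, the 10 lower and the 10 higher with the smallest p by edgeR's quasi-likelihood test were taken after their values were seen, and are given as values. Aplp2, a relative of the amyloid precursor protein with a mer7m8 match, stood at 316, 273, 299 and 245 CPM with D5 and 97.5, 109, 112 and 119.9 CPM with D6 (log2 fold change −1.36 ± 0.08, adjusted p = 2.38e-15). Pi4k2b, a phosphatidylinositol kinase without a match, stood at 165, 175, 153 and 174 CPM with D5 and 42.4, 57, 51 and 65.5 CPM with D6 (log2 fold change −1.62 ± 0.09, adjusted p = 5.60e-15). Ghr, the growth hormone receptor, also without a match, stood at 121, 135, 124 and 143 CPM with D5 and 59.9, 60.9, 56.8 and 64.2 CPM with D6 (log2 fold change −1.11 ± 0.08, adjusted p = 1.79e-13). Igfbp1, a liver protein that binds insulin-like growth factors, had no match and stood at 595, 475, 531 and 449 CPM with D5 and 212, 182, 191 and 177 CPM with D6 (log2 fold change −1.42 ± 0.08, adjusted p = 6.32e-13). In these 4 genes each D6 library was below every D5 library. The other 6 were Ywhag (−0.97), Purb (−1.01), Arpc5 (−0.92), Aff4 (−0.86), Cck (−1.24) and Hgsnat (−1.02), with log2 fold changes in parentheses, and 5 of the 10 had a seed match. Of the higher genes, Sprr1a, a protein of the cornified envelope of epithelia, stood at 4278, 4471, 4259.6 and 4225 CPM with D5 and 6719.6, 6514, 5945 and 6351 CPM with D6 (log2 fold change 0.57 ± 0.06, adjusted p = 9.55e-10). Creb5, Unc13b, Mboat1, Ppif, Mirt1, Tbc1d9, Cdc42bpg, Dmgdh and Clmn were the others, with log2 fold changes of 0.75, 0.68, 0.70, 0.65, 0.67, 1.07, 0.76, 0.64 and 0.56, and 4 of these 10 genes had a match.

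Transcripts of the mitochondrial genome, which encodes subunits of the respiratory chain and the ribosomal RNAs of the organelle, also differed. Of 11 tested, 6 were higher and 1 lower with D6 at 10 nM, where 6.94% of all genes tested were higher and 10.3% lower. mt-Nd2, a subunit of complex I, stood at 2424, 2188, 2039 and 2016 CPM with D5 and 2740.1, 2614, 2880.3 and 2924 CPM with D6 (log2 fold change 0.37 ± 0.06, adjusted p = 2.23e-05). mt-Nd4, mt-Nd5 and mt-Nd1, of the same complex, rose by 0.31, 0.31 and 0.22 on the log2 scale, and mt-Co1 and mt-Cytb, of complexes IV and III, by 0.21 and 0.21. The libraries did not overlap in these 6 genes. mt-Nd6, also of complex I, was at −0.04 with overlap and did not pass. mt-Rnr1, the small ribosomal RNA, fell from 900.1, 969, 869 and 830.2 CPM to 708, 819, 739 and 743 CPM (log2 fold change −0.24 ± 0.06, adjusted p = 0.00407), while mt-Rnr2, the large one, was at −0.06 and did not pass. The part of RNA isolation and library preparation in these ribosomal RNA counts was not tested. At 50 nM 4 were higher and 0 lower with D6, where 8.26% and 12.2% of all genes tested were.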
